A study of Mus musculus with 14 samples.

Results

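Chrm4 and Cnr1 are 2 of the 255 genes that were imaged in 13602 excitatory neurons of the mouse hippocampus. Chrm4 encodes the muscarinic acetylcholine receptor M4, and Cnr1 encodes the cannabinoid receptor CB1. They are described side by side because earlier results of the same cells showed both to be higher in dentate neurons that carry Arc transcripts. Their relation to Arc is therefore given here as a description, and only its difference between groups was tested. Both are receptors of the Gi/o class, which lower cyclic AMP and open potassium channels when bound. M4 answers acetylcholine, which reaches the hippocampus mainly from the medial septum. CB1 answers the endocannabinoids that principal neurons release, and it sits mostly on axon terminals, where it holds back transmitter release. In the hippocampus it is best known from the cholecystokinin class of interneurons, whose terminals carry far more of it than those of pyramidal neurons. Arc is an immediate early gene whose transcript appears within minutes of strong synaptic activity.

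The study addresses cranial radiation and the augmentation of brain-derived neurotrophic factor. RNA was imaged in place by MERFISH, in which each transcript of a chosen panel is read as a bar code over rounds of fluorescent hybridisation, on sagittal sections of fresh-frozen mouse hemibrains. There were 14 samples in 4 groups: mice without radiation given vehicle (Ctl-Veh, n = 5), mice without radiation given RZ (Ctl-Rz, n = 3), irradiated mice given vehicle (Ir-Veh, n = 4) and irradiated mice given RZ (Ir-Rz, n = 2). RZ is the name the labels use, and the groups share no other stated treatment; strain, age and doses were not stated in the sources at hand. The deposited cell table gives each sample an assay number, the same as the number in its title. It ties the samples into 7 pairs from unlike groups, and samples that share it are said here to share a run. The labels do not say that the samples came from separate animals, so that p-values measure the spread between these samples only.

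The deposited classes held 8561 dentate granule (DG), 3397 CA1 and 1644 CA3 excitatory neurons. Counts summed to between 137786 and 434127 per sample over 413 to 1449 cells, and the median cell held 239 counts. The classes were checked against marker genes in their main Leiden clusters, which are the groups of cells with like expression that the submitters deposited. Grm2, a dentate granule marker, stood at 3.86 counts per cell in the DG cells of cluster 0. Fibcd1, a CA1 marker, stood at 7.12 in the CA1 cells of cluster 1, and Iyd, a CA3 marker, at 1.44 in the CA3 cells of cluster 8. The labels held in these clusters. A set of 144 DG cells (1.68%) lay in clusters 1 and 8 beside CA1 and CA3 cells. The 48 of them in cluster 8 stood at only 0.563 Grm2 counts per cell and at 0.729 Iyd counts. The 96 in cluster 1 kept 2.01 Grm2 counts per cell and held 9.77 Arc counts per cell. Their Fibcd1 stood at 0.177 counts per cell, against 0.374 in the DG cells of cluster 0. The receptors' values in DG cells are given with and without these 144 cells.

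Chrm4 lies on chromosome 2 (chr2:91922189-91929835, GRCm38.p6) and Cnr1 on chromosome 4 (chr4:33923171-33948831, GRCm38.p6). The 250 bases upstream of a RefSeq transcript start are shown for each gene. The 2 genes share their high level in CA neurons, and over all DG cells both were higher with Arc. Capitals mark the E-box, CANNTG, the element bound by helix-loop-helix factors. The Chrm4 window is chr2:91921939-91922188 and the Cnr1 window is chr4:33924014-33924263, both on the plus strand.
Chrm4: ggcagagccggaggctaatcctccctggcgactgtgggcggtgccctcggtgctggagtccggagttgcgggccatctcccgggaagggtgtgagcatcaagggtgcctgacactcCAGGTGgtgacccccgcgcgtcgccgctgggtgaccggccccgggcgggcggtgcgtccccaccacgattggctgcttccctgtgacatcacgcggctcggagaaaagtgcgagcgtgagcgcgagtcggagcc
Cnr1: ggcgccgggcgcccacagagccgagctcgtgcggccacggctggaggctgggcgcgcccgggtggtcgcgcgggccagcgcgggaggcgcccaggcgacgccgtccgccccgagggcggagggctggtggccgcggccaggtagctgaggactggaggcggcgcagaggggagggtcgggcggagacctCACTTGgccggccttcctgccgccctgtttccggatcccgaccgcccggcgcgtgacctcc

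Both windows are rich in G and C, at 70% for Chrm4 and 79.2% for Cnr1, against a median of 52.4% over 32841 RefSeq windows of the same length. Each holds 1 E-box, 134 bases before the start for Chrm4 and 61 bases before it for Cnr1, and 66.2% of all windows hold at least 1. RefSeq gives Cnr1 2 further starts, whose windows have 68.8% and 49.2% G and C and also 1 E-box each. The elements of the activity-regulated factors were searched on both strands in all 4 windows. The full cyclic AMP response element TGACGTCA had 0 matches (1.55% of all windows hold it), and so had its core TGACG, which lies inside the full element (17.8%). The AP-1 element TGANTCA (6.75%) and the EGR element GCGNGGGCG (4.70%) also had 0 matches. No match says only that these letters are not in these windows.

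Chrm4 and Cnr1 were both low in dentate granule neurons and several-fold higher in CA1 and CA3 pyramidal neurons. The level used for this comparison is CPM, the counts of a gene after the counts summed over a class within a sample were scaled to a common total. Chrm4 had a lowest value of 153 CPM, a median of 249 and a highest value of 458 in the DG cells of the 14 samples. In CA1 cells its values ran from 1149 through a median of 1837 to 2271 CPM, and in CA3 cells from 513 through 1578 to 2614 CPM. The CA1 and the CA3 value lay above the DG value of the same sample in 14 of 14 samples. The geometric mean of the ratio was 6.40 for CA1 over DG and 5.42 for CA3 over DG.

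Cnr1 showed the same step between the dentate gyrus and the CA fields. Its DG values ran from 225 through a median of 430 to 590 CPM. Its CA1 values ran from 701 through 2115 to 3110 CPM, and its CA3 values from 1205 through 2281 to 3569 CPM. CA1 and CA3 again lay above DG in 14 of 14 samples, by 4.75-fold and 5.30-fold. The order of the CA fields differed between the genes but was small against the spread over samples. Chrm4 was higher in CA3 than in CA1 in 4 of 14 samples (mean 1597 ± 543 against 1797 ± 331 CPM, SD, n = 14), and Cnr1 in 11 of 14 (2170 ± 752 against 1981 ± 722 CPM). The classes were built from the expression of these same cells, so these differences carry no test.

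**Figure D1:**
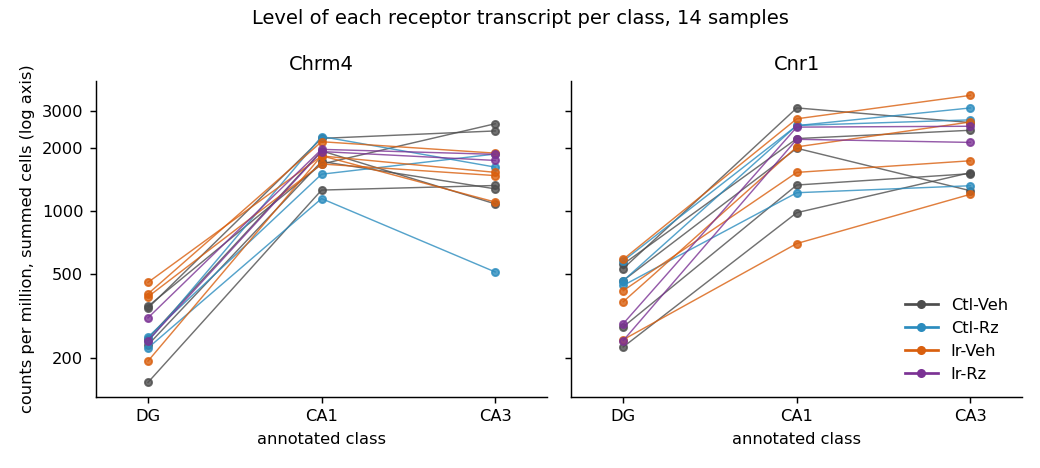
Level of Chrm4 (left) and Cnr1 (right) in DG, CA1 and CA3 neurons, in CPM of the counts summed per sample and class on a log axis, with 1 line per sample. All 14 lines go up from DG to CA1 for each gene, whereas from CA1 to CA3 the lines run both ways.

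Per cell the transcripts were sparse. DG neurons held 0.0659 ± 0.0255 Chrm4 and 0.0925 ± 0.0358 Cnr1 counts per cell (mean ± SD, n = 14). CA1 neurons held 0.699 ± 0.220 and 0.761 ± 0.299, and CA3 neurons 0.534 ± 0.202 and 0.737 ± 0.304. No Chrm4 count was found in 94.7% of DG, 56.2% of CA1 and 66.6% of CA3 cells. No Cnr1 count was found in 93.5%, 55.2% and 53.5% of them. CA cells also held more counts of all genes, so each cell was thinned to 100 counts, which left 7176 DG, 3144 CA1 and 1473 CA3 cells. After thinning, Chrm4 was seen in 2.63% of DG, 16.5% of CA1 and 14.7% of CA3 cells, and Cnr1 in 3.47%, 18.1% and 18.6%. The step between DG and the CA fields was therefore present at equal depth.

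The Leiden clusters gave the same order. Over all cells of a cluster, Chrm4 stood at 243 CPM in cluster 0 (6033 cells), 1803 in cluster 1 (3257 cells) and 1599 in cluster 8 (1202 cells). Cnr1 stood at 332, 1848 and 2382 CPM. Cluster 3, which holds 3048 cells of all 3 classes with a median of only 96 counts, stood between them at 559 and 954 CPM. Within it the classes kept apart: Chrm4 was at 247 CPM in its 2383 DG cells, 1830 in its 366 CA1 cells and 1065 in its 299 CA3 cells. Cnr1 was at 532, 1876 and 2633 CPM in the same cells. The DG cells that lay in the CA clusters departed from the other DG cells. The 96 of them in cluster 1 stood at 997 CPM for Chrm4 and 997 for Cnr1, and the 48 in cluster 8 at 2721 and 4386 CPM, against 240 and 317 CPM in the 6000 DG cells of cluster 0.

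The highest count of a member in any cell was a Cnr1 count of 22, in a DG cell. Chrm4 reached at most 4 counts in a DG cell, 9 in a CA1 cell and 8 in a CA3 cell, while Cnr1 reached 7 in CA1 and 9 in CA3. Only 9 DG cells, from 6 samples, held 5 or more Cnr1 counts, and they held 12.5% of all Cnr1 counts of the class; 5 of them lay in cluster 0 and 4 in clusters 1 and 8. Some interneuron transcripts were high in these cells. Htr3a, a serotonin receptor channel of interneurons, stood at 10417 CPM in them and at 68.1 CPM in the 8002 DG cells with no Cnr1 count. Cck, the peptide of CB1-bearing interneurons, stood at 13081 against 2995 CPM. It does not mark interneurons alone here, since CA1 and CA3 cells with no Cnr1 count stood at 11781 and 12109 CPM. Calb2, which encodes the calcium-binding protein calretinin, stood at 3876 against 144 CPM. Cxcl14, a chemokine transcript of some interneurons, stood at 8479 against 328 CPM, and Gad2, a GABA-synthesis enzyme, at 4118 against 462 CPM. The 10 measured genes of the 19 on the inhibitory neuron list, to which Cxcl14 does not belong, summed to 42393 against 10496 CPM. Of these 10, 3 were lower in the Cnr1-rich cells: Adarb2 (1211 against 1286 CPM) and, with no count in them, Crh (174 CPM in the others) and Chodl (79.6 CPM). Grm2, the granule cell marker, was lower at 3392 against 14349 CPM but not at 0. Of genes high in CA1 or CA3 cells, Dkk3 stood at 9205 against 1372 CPM, Cckbr at 1696 against 153 and Iyd at 1211 against 772. Fibcd1 was lower at 242 against 1356 CPM, and Fezf2 had no count in the Cnr1-rich cells against 87.1 CPM. The cells were picked by their Cnr1 counts after these had been seen, so the values are a description, and whether the outlines take in transcripts of neighbouring cells was not tested.

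In DG neurons the members were higher in cells with Arc, the pattern by which they had been chosen. For each sample the CPM of a member, with Arc left out of the total and 0.5 counts added, was taken in cells with 1 or more Arc counts and divided by that in cells with none. For Chrm4 the log2 ratio ran from -1.84 through a median of 1.25 to 2.04 and was above 0 in 12 of 14 samples. For Cnr1 it ran from -0.16 through 1.07 to 2.07 and was above 0 in 12 of 14. Of the 254 genes other than Arc, 13.4% were higher in at least 12 of 14 samples, and 7.09% had a median over 1. The median over all 254 was 0.13, and by their medians Chrm4 held rank 11 and Cnr1 rank 16. The lowest Chrm4 value belongs to the Ir-Rz sample of run 9, which had 0 Chrm4 counts in its 14 DG cells with Arc and so depends on the added 0.5 counts.

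The CA fields showed less of this relation. In CA1 the median log2 ratio was 0.28 for Chrm4, higher in 9 of 14 samples, and -0.02 for Cnr1, higher in 7 of 14. In CA3 it was 0.42 for Chrm4, higher in 10 of 14, and -0.11 for Cnr1, higher in 6 of 14. Over all genes 3.94% in CA1 and 1.57% in CA3 were higher in at least 12 samples. The median of all genes was -0.32 in CA1 and -0.15 in CA3, and Chrm4 held ranks 13 and 11 of 254 there against 57 and 118 for Cnr1. In CA1 the cells without Arc were few, between 3 and 75 per sample, because 86.9% ± 6.56 of CA1 cells (SD, n = 14) held Arc.

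**Figure D2:**
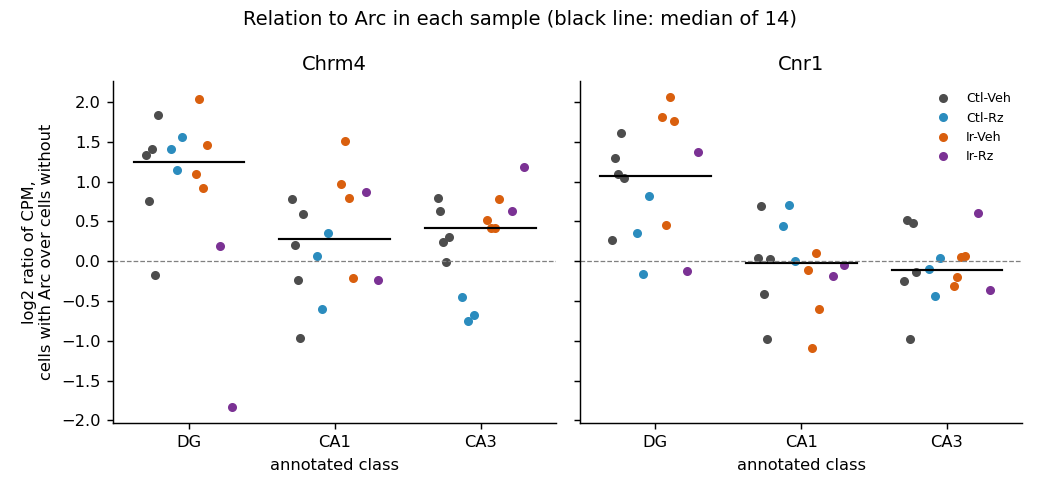
Log2 ratio of each gene's CPM in cells with Arc over cells without Arc, 1 point per sample, by class and gene, with a black line at the median of the 14 samples. The DG points of Chrm4 and Cnr1 lie above 0 in 12 of 14 samples, and the Cnr1 points of CA1 and CA3 spread around 0.

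Among DG cells grouped by their number of Arc counts, Chrm4 was higher only in the group richest in Arc. Chrm4 stood at 241 CPM (95% exact Poisson interval 218 to 266) in the 7675 DG cells with no Arc count. It stood at 232 CPM (169 to 312) in the 693 cells with 1 or 2, and at 1327 CPM (1059 to 1643) in the 193 cells with 3 or more, from 84 Chrm4 counts. Cnr1 stood at 340 CPM (312 to 369), 596 (492 to 717) and 1201 (946 to 1503) in the same cells. Taken apart, cells with 1 Arc count stood at 627 CPM (509.5 to 763) and cells with 2 at 444 CPM (243 to 745), so that Cnr1 did not go up with every count. The sample medians of Cnr1 were 340, 411, 143 and 882 CPM at 0, 1, 2 and 3 or more Arc counts. These intervals cover counting error only. The median total per DG cell also went up with Arc, from 197 counts in cells with none through 257 in cells with 1 Arc count to 318 in cells with 3 or more.

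Most of the receptor counts in these Arc-rich DG cells lay in cells of the CA clusters. Of the 193 DG cells with 3 or more Arc counts, 78 (40.4%) lay in clusters 1 and 8, and these carried 62 of the 84 Chrm4 counts (73.8%) and 68 of the 76 Cnr1 counts (89.5%). Without clusters 1 and 8, the 115 remaining cells stood at 624.7 CPM for Chrm4 (391 to 946), still above the 237 CPM (214 to 262) of cells without Arc. Of the 22 Chrm4 counts behind this value, 7 lay in 23 cells outside cluster 0. The 6 DG cells of cluster 14, at any Arc count, held 6 Chrm4 counts, 8.17 Arc counts per cell and 0 Grm2 counts. Cnr1 stood at 227 CPM (98.1 to 448) in the 115 cells, against 328 CPM (301 to 357) in cells without Arc. In cluster 0 alone, where 92 of the 115 cells lay, Chrm4 stood at 486 CPM (272 to 802) from 15 counts. Cnr1 stood there at 130 CPM (35.3 to 332) from 4 counts. The 18 cells of cluster 0 with 10 or more Arc counts held 0 Chrm4 counts (0 to 641 CPM). At 1 Arc count, Cnr1 stood in cluster 0 at 540 CPM (425 to 676) over all samples together, against 301 CPM (273 to 332) with none. The median of the samples was 322 and the highest 1719 CPM, against a median of 291 with none, and at 2 Arc counts the level was 220.5 CPM from 6 counts.

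Measured per sample over cluster 0 alone, the relation to any Arc count was close to 0 for Chrm4. Its median log2 ratio was 0.05, higher in 7 of 14 samples and of rank 167 of 254. For Cnr1 the median was 0.38, higher in 8 of 14 and of rank 73. The share of all genes higher in at least 12 samples was 11.4% in these cells. In DG cells of all clusters thinned to 100 counts, the median was 1.88 for Chrm4, higher in 12 of 14, and 0.30 for Cnr1, higher in 9 of 14, with 28% of all genes higher in at least 12 samples. Most thinned cells hold no count of a member, and the added 0.5 counts weigh more there. Across the thinned DG cells of a sample, the correlation with Arc had a median r of 0.055 for Chrm4, positive in 9 of 14 samples, and of 0.001 for Cnr1, positive in 7 of 14.

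**Figure D3:**
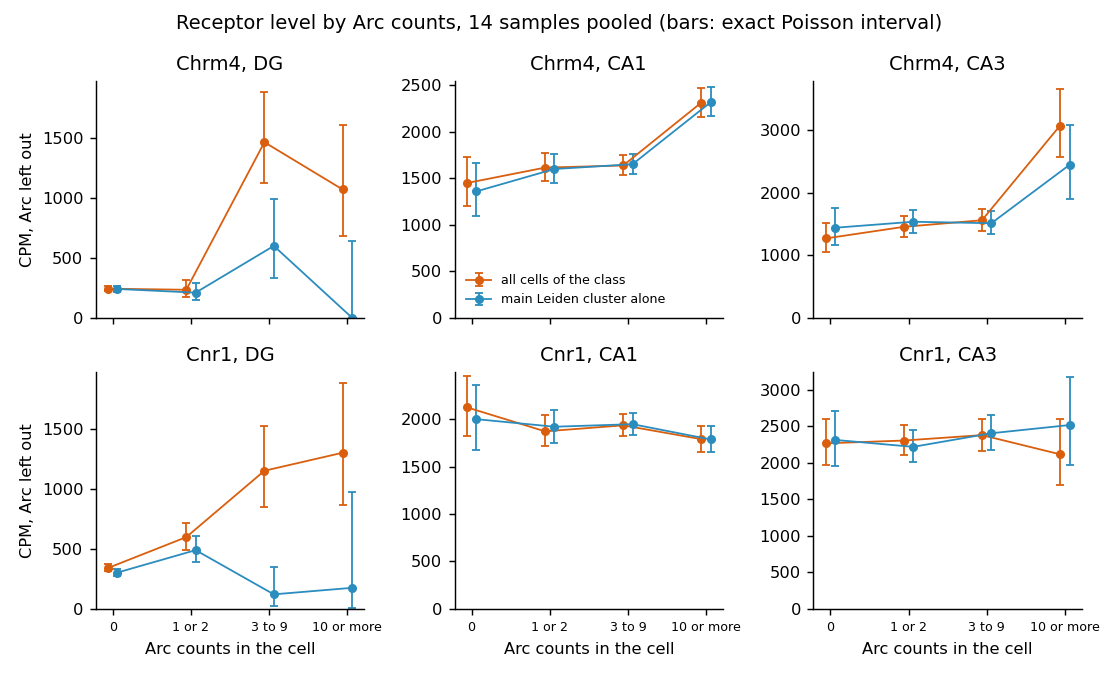
Level of Chrm4 (upper panels) and Cnr1 (lower panels) in CPM with Arc left out of the total, by the number of Arc counts in a cell, for DG, CA1 and CA3 cells, in all cells of a class and in its main Leiden cluster alone; bars are 95% exact Poisson intervals. In DG the points for all cells lie between 1068 and 1461 CPM from 3 Arc counts on, and the points of cluster 0 reach at most 598 CPM.

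Markers of other cells were set beside these values. The dentate markers Grm2 and Calb1 summed to 14934 CPM in DG cells without Arc, 12661 in those with any Arc and 8611 in those with 3 or more. The CA1 marker list stood at 1547, 1076 and 679 CPM in the same sets, while Iyd, the only measured gene of the CA3 list, stood at 779, 811 and 885 CPM. The inhibitory neuron list stood at 10607, 11910 and 13288 CPM. It holds Cck and stood at 12058 CPM in CA1 cells without Arc, so it does not mark inhibitory neurons alone. Drd1, Drd2 and Adora2a summed to 1555, 2497 and 2955 CPM and are not taken here as marks of a cell type. None of the measured markers of these lists was at 0 in any of the 3 sets. Among the 10 nearest cells of each DG cell, CA1 or CA3 cells made up a mean of 0.102% for cells without Arc and 0.984% for cells with 3 or more. For the latter the share was 2.44% in clusters 1 and 8 and 0% in cluster 0. The part of these markers and neighbours in the relation to Arc was not tested.

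Arc was held by 86.9% of CA1 and 74.2% of CA3 cells, and in both fields Chrm4 was higher in the cells with the most Arc whereas Cnr1 was not. In CA1 cells, Chrm4 stood at 1449 CPM (1205 to 1728) with no Arc count and at 2315 CPM (2165 to 2473) with 10 or more. In CA3 cells it stood at 1269 CPM with none and at 3079 CPM (2569 to 3661) with 10 or more. Cnr1 went from 2127 to 1790 CPM in CA1 and from 2267 to 2117 CPM in CA3. Per sample, the median log2 ratio of Chrm4 in cells with 10 or more over cells with 1 or 2 Arc counts was 0.50 in CA1, from -0.09 to 1.28, and above 0 in 12 of 14 samples. The share of all genes above 0 in as many samples was 6.3%, and Chrm4 held rank 28 of 254. Within cluster 1 alone the median was 0.72, above 0 in 11 of 14 samples, and 7.87% of all genes were above 0 in at least 12. In CA3 the 9 samples with enough such cells gave a median of 1.05 for Chrm4, above 0 in 9 of 9, which 2.36% of all genes reached. Within cluster 8 alone the median was 0.72, above 0 in 4 of 5 samples, and the rank went from 31 to 60 of 254. Cnr1 gave 0.08 in CA1, above 0 in 8 of 14, and 0.03 in CA3, above 0 in 5 of 9. Fos, an immediate early gene encoding a part of AP-1, held rank 1 in CA1 and in CA3 in the same comparison.

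The genes highest with Arc in DG cells were mostly other activity-induced genes. Fos had a median log2 ratio of 3.91 and Fosb, another AP-1 gene, 2.82, each higher in 14 of 14 samples. The zinc-finger factors Egr1, Egr2 and Egr4 followed with 2.14, 2.12 and 1.58, and Atf3 and Batf3, which encode leucine-zipper factors, with 1.85 and 1.38. The list also held Cckbr, a cholecystokinin receptor gene, at 2.03 and higher in 13 of 14 samples. Fezf2, a transcription factor of cortical projection neurons, stood at 1.63, and Gpr34, a lysophosphatidylserine receptor gene best known from microglia, at 1.34 in only 9 samples. In cluster 0 alone the values of Fos, Fosb, Egr1, Egr2 and Egr4 were lower, at 2.18, 1.12, 1.14, 1.39 and 0.70. Cckbr stood there at 0.72, higher in 10 of 14 samples and of rank 21, and Fezf2 at 0.68. Atf3 stood at 1.60, Batf3 at 1.51 and Gpr34 at 1.96. Of the immediate early genes other than Arc, 8 of 8 measured had a median above 0, beside 170 of all 254 genes.

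The other measured genes of the same transmitter systems had median ratios between -0.05 and 0.50 over all DG cells. Of the cholinergic list, Chat, the acetylcholine-synthesis enzyme, had a median log2 ratio of 0.23 in DG cells. The nicotinic receptor subunit genes Chrna5, Chrna6 and Chrna7 had -0.05, 0.50 and 0.00. Of the endocannabinoid list only Cnr1 and Gpr55, a lysophosphatidylinositol receptor gene, were measured, and Gpr55 had 0.26. In cluster 0 alone the values were 0.38 for Chat, -0.14 for Chrna5, 0.62 for Chrna6, -0.05 for Chrna7 and 0.38 for Gpr55. There Chrna6 stood above both Chrm4 (0.05) and Cnr1 (0.38), and the differences between genes were not tested. Of the 12 measured genes for Gi/o-coupled receptors, 8 had a median above 0, and 3 a median over 1: Chrm4, Cnr1 and Htr1f, a serotonin receptor gene, at 1.24 (0.63 in cluster 0 alone). Of 6 measured G protein and cyclic AMP effector genes, 3 were above 0.

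Chat, Chrna6 and Gpr55 stood below 0.1 counts per cell in each class, and Chrna7, the subunit of the alpha7 receptor, at 0.634 in DG, 0.819 in CA1 and 1.07 in CA3. Chrna5 had 0.0762, 0.358 and 0.106 counts per cell, so that it was highest in CA1. Counts per cell depend on each gene's probes and are not compared between genes.

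Across the 42 sums of 14 samples and 3 classes, the genes most like Chrm4 in log2 CPM included Dkk3 (Pearson r = 0.945), Fezf2 (0.900), Gpr63 (0.881) and Htr1f (0.876). Those most like Cnr1 were Gpr63 (0.909), Htr1f (0.881), Chrm4 (0.866), Cpne5 (0.850) and Fezf2 (0.848). Arc held rank 8 for Chrm4 (0.854) and rank 9 for Cnr1 (0.804). The 3 classes of a sample share its section and depth, and the step between DG and the CA fields runs through all of these values, so they are given without a p. Within the 7176 thinned DG cells the highest mean correlations were weak, at 0.072 for Chrm4 with Cckbr and 0.134 for Cnr1 with Calb2. The next for Chrm4 were Arc (0.065), Acta2 (0.049), Car3 (0.043) and Crhr1 (0.041), and for Cnr1 Fezf2 (0.088), Cxcl14 (0.087), Dkk3 (0.082) and Cck (0.075); in counts this sparse they are no finding.

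The receptors were seen together in few cells. Of the 179 thinned DG cells with Chrm4, 14 (7.82%) also held Cnr1, against 3.17% of the other DG cells. In cluster 0 alone the shares were 4.38% and 2.68%. In CA1 the shares were 15.2% of cells with Chrm4 and 16.7% of the others, and in CA3 21.6% and 19.2%.

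Between the 4 groups no difference in either gene passed the test. Counts of all cells were summed per sample, scaled by the trimmed mean of M values (TMM) and compared with edgeR's quasi-likelihood test, adjusted by Benjamini-Hochberg over all 255 genes. Radiation without RZ, RZ in irradiated mice, RZ in mice without radiation and the difference between these RZ effects each called 0 of 255 genes (0%). The counts at an unadjusted p under 0.05 were 4, 2, 6 and 3, and DESeq2 also called 0, with 7, 4, 10 and 4 genes at that unadjusted level.

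For Chrm4 the TMM-scaled level over all cells was 1003 ± 201 CPM in Ctl-Veh (SD, n = 5) and 1131 ± 220 in Ir-Veh (n = 4). In the groups given RZ it was 818 ± 219 without radiation (Ctl-Rz, n = 3) and 1055 ± 42.2 with it (Ir-Rz, n = 2). The log2 difference of Ir-Veh from Ctl-Veh was 0.17 ± 0.26 (SE; 95% interval -0.37 to 0.71), with an adjusted p of 0.984 in edgeR. That of Ir-Rz from Ir-Veh was -0.10 ± 0.34 (-0.80 to 0.60) and that of Ctl-Rz from Ctl-Veh -0.30 ± 0.29 (-0.89 to 0.30). The intervals leave room for differences of over 1.5-fold in either direction in the second of these.

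For Cnr1 the level over all cells was 1139 ± 384 CPM in Ctl-Veh and 1208 ± 410 in Ir-Veh, and with RZ it was 1249 ± 379 in Ctl-Rz and 1279 ± 154 in Ir-Rz. The log2 differences were 0.08 ± 0.31 (-0.56 to 0.73) for radiation, 0.08 ± 0.40 (-0.75 to 0.91) for RZ after radiation and 0.14 ± 0.34 (-0.56 to 0.83) for RZ without it. The sign of the Cnr1 differences changed when single samples were left out, so that no direction can be given. The RZ differences of irradiated and unirradiated mice were themselves apart by 0.20 ± 0.44 for Chrm4 and -0.05 ± 0.53 for Cnr1 on the log2 scale, with an adjusted p of 0.998 in edgeR.

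Within DG neurons the groups were tested in a fit of their own, which called 0 of 252 genes (0%) in each comparison, with 4 genes at an unadjusted p under 0.05 for radiation, 5 for RZ after radiation and 4 for RZ without it. Chrm4 stood at 175, 317, 255, 354 and 256 TMM-scaled CPM in the Ctl-Veh samples of runs 2, 3, 8, 11 and 12. It stood at 187, 247 and 225 CPM in the Ctl-Rz samples of runs 3, 8 and 11. The Ir-Veh samples of runs 1, 2, 9 and 12 gave 418, 238, 366 and 450 CPM, and the Ir-Rz samples of runs 1 and 9 gave 259 and 263 CPM. The Ir-Veh values reached highest, but every group lay at least in part within the range of the Ctl-Veh samples. The log2 difference was 0.42 ± 0.28 for radiation, -0.48 ± 0.38 for RZ after radiation and -0.32 ± 0.32 for RZ without it. Blocking by run gave 0.64 ± 0.29, -0.60 ± 0.27 and -0.51 ± 0.22 in the same order. The unadjusted p-values of this edgeR fit were 0.0509, 0.04996 and 0.0457, and the adjusted ones 0.776, 0.899 and 0.757. It called 0 of 252 genes in each comparison, with 10, 11 and 13 at an unadjusted p under 0.05.

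Cnr1 stood at 259, 420, 290 (290.1), 546 and 621 TMM-scaled CPM in the DG cells of the same Ctl-Veh samples and at 485, 434 and 438 in the Ctl-Rz samples. The Ir-Veh samples gave 383, 300.5, 471 and 481 CPM, and the Ir-Rz samples 259 and 246. Both Ir-Rz values lay below all 4 Ir-Veh values. How many other genes keep apart in this way was not counted, so the gap is no finding. The log2 difference was -0.68 ± 0.41, with an unadjusted p of 0.109 and an adjusted p of 0.997 in edgeR, and 0% of genes were called. Within run 1 the values were 259 against 383 and within run 9 246 against 471, and blocking by run gave -0.72 ± 0.30 (unadjusted p = 0.0371, adjusted p = 0.899, edgeR). For radiation it was -0.07 ± 0.30 and for RZ without radiation 0.09 ± 0.32.

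The levels of Arc and the shares of DG cells in the CA clusters in the same samples are given beside this, and neither is a called difference. Arc stood at 601 and 492.97 TMM-scaled CPM in the DG cells of Ir-Rz against 2823, 1223, 865 and 1550 in Ir-Veh, a log2 difference of -1.55 ± 0.51 (unadjusted p = 0.00572, adjusted p = 0.997, edgeR). DG cells in clusters 1 and 8 made up 0.599% and 1.51% of DG cells in the Ir-Rz samples and 3.004%, 1.42%, 2.96% and 4.23% in the Ir-Veh samples, so the shares overlapped. They held 13.8% of the Chrm4, 13.7% of the Cnr1 and 41.8% of the Arc counts of the class. Without them the log2 difference of Ir-Rz from Ir-Veh became -0.27 ± 0.40 for Chrm4, -0.43 ± 0.40 for Cnr1 and -1.45 ± 0.46 for Arc, with adjusted p-values of 0.996 in edgeR. The Cnr1 values of the groups then met, at 251 and 198 CPM in Ir-Rz and from 245 to 411 CPM in Ir-Veh. For radiation without RZ the values without these cells were 0.25 ± 0.30 for Chrm4 and -0.34 ± 0.30 for Cnr1, and for RZ without radiation -0.27 ± 0.34 and 0.17 ± 0.31.

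In CA1 and CA3 the groups overlapped widely, and 0 of 233 and 0 of 218 genes (0%) were called. At an unadjusted p under 0.05 there were 5, 3 and 2 genes in CA1 and 4, 4 and 6 in CA3, in the order radiation, RZ after radiation and RZ without it. Chrm4 stood in CA1 at 1800 ± 338 TMM-scaled CPM in Ctl-Veh and 1927 ± 258 in Ir-Veh, and with RZ at 1564 ± 544 (Ctl-Rz) and 1899 ± 260 (Ir-Rz). Cnr1 stood there, with the groups named likewise, at 1947 ± 775, 1741 ± 700, 2012 ± 715 and 2287 ± 137. In CA3 Chrm4 stood at 1793 ± 624, 1526 ± 372, 1352 ± 879 and 1762 ± 280, and Cnr1 at 1961 ± 637, 2249 ± 772, 2150 ± 594 and 2258 ± 185. The widest spread was that of Chrm4 in CA3, from 386 CPM in the Ctl-Rz sample of run 3, which rests on 18 counts in 132 cells, to 2564 CPM in the Ctl-Veh sample of the same run.

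**Figure D4:**
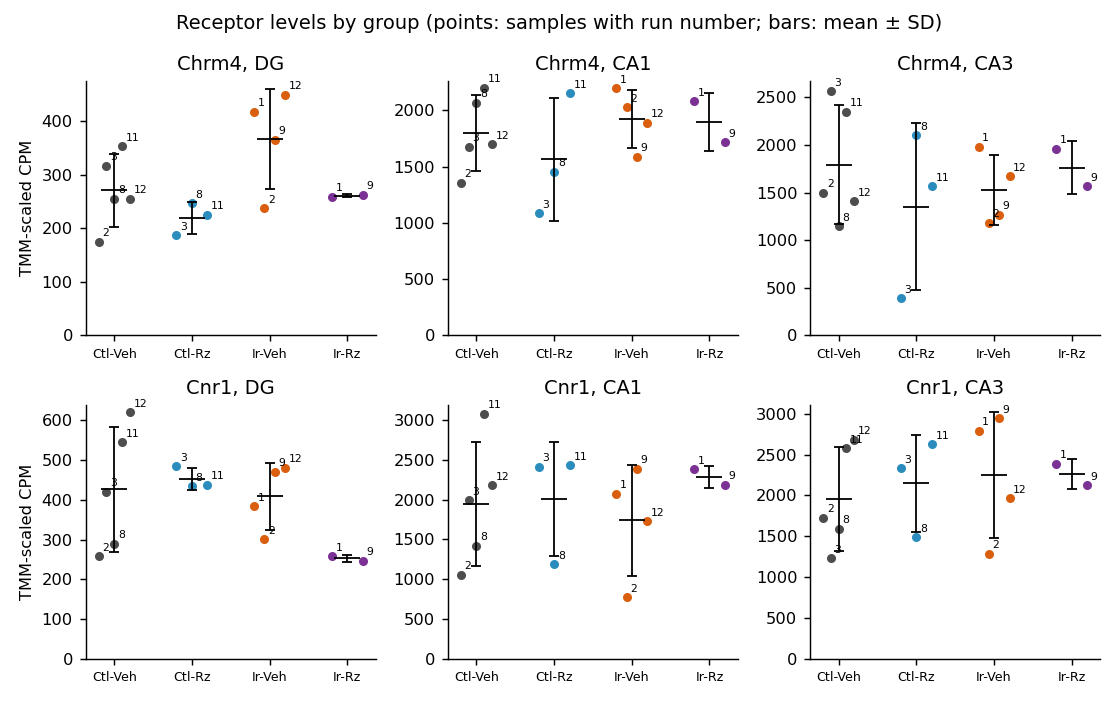
TMM-scaled CPM of Chrm4 (upper panels) and Cnr1 (lower panels) in DG, CA1 and CA3 cells by group, 1 point per sample with its run number, and the mean ± SD of each group. Of these panels only Cnr1 in DG keeps Ir-Rz and Ir-Veh apart, at 246 to 259 against 300.5 to 481 CPM. The share of all genes that keep apart was not counted, and no comparison passed the test.

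The lists fixed for the receptors' pathways did not stand apart between groups. Of the measured cholinergic, endocannabinoid and Gi/o receptor genes, 0 rose and 0 fell in each of the 3 comparisons over all cells. The median log2 differences for radiation, RZ after radiation and RZ without it were 0.07, -0.03 and -0.14 for the cholinergic genes. They were 0.13, -0.07 and -0.08 for the Gi/o receptor genes, beside 0.02, -0.02 and 0.01 for all genes. The comparisons of RZ after radiation and of radiation share the Ir-Veh samples, and those of radiation and of RZ without it share the Ctl-Veh samples.

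The relation to Arc was compared between groups with exact permutation tests over samples, 18 in all for the 2 genes, 3 classes and 3 comparisons. After Benjamini-Hochberg adjustment 0 of 18 passed. The smallest unadjusted p in an exact two-sided test was 0.0357, for Chrm4 in CA3, where the log2 ratio averaged 0.40 ± 0.32 in Ctl-Veh (SD, n = 5) against -0.63 ± 0.15 in Ctl-Rz (n = 3); its adjusted p was 0.643, and the smallest p this design allows is 0.0179. In DG the ratio of Chrm4 was -0.82 ± 1.44 in Ir-Rz (n = 2) and 1.38 ± 0.49 in Ir-Veh (n = 4), with an exact p of 0.133 and an adjusted p of 0.723. No smaller p than 0.0667 is possible with 2 against 4 samples, so the tests of Ir-Rz against Ir-Veh could not pass. The DG values had also served to choose the 2 genes, so the DG tests give no support of their own.

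A difference between runs was called for Cnr1 in CA1 and over all cells, as it was for 36.5% and 42.4% of all genes. In CA1 cells the Cnr1 level was 774 and 1058 TMM-scaled CPM in the 2 samples of run 2 and 2434 and 3078 in those of run 11. Between these runs, the lowest and the highest, the mean differed by 3.01-fold. The 2 samples of a run differed by a median of 1.21-fold and at most 1.37-fold. A term for the run, given the group, had an adjusted p of 0.00198 in CA1 in edgeR, where 36.5% of genes were called, and of 0.0246 over all cells, where 42.4% were called. Without run 2 these became 0.0781 and 0.272, and over all cells the adjusted p was also above 0.05 without run 1 (0.0638) and without run 9 (0.0692). In DG cells the adjusted p was 0.149 for Cnr1 (38.1% of genes called) and in CA3 cells 0.297 (0% called).

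Chrm4 differed less between runs, by 1.58-fold in CA1, with an adjusted p of 0.141 in edgeR. Its 2 samples of a run differed there by a median of 1.11-fold and at most 1.55-fold. The run test was added after the values of the runs had been seen. Within the 3 runs that held a Ctl-Rz and a Ctl-Veh sample, Chrm4 over all cells was lower with RZ each time. The Ctl-Rz samples of runs 3, 8 and 11 gave 573, 886 and 994 TMM-scaled CPM, and their Ctl-Veh partners 873, 1224 and 1212. In the fit blocked by run the log2 difference was -0.45 ± 0.20 (unadjusted p = 0.0398, adjusted p = 0.746, edgeR), and 0% of genes were called. The share of all genes that went 1 way within the 3 runs was not counted. In CA3 cells Chrm4 was lower with RZ in runs 3 and 11 but higher in run 8, at 2104 against 1145 CPM.

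**Figure D5:**
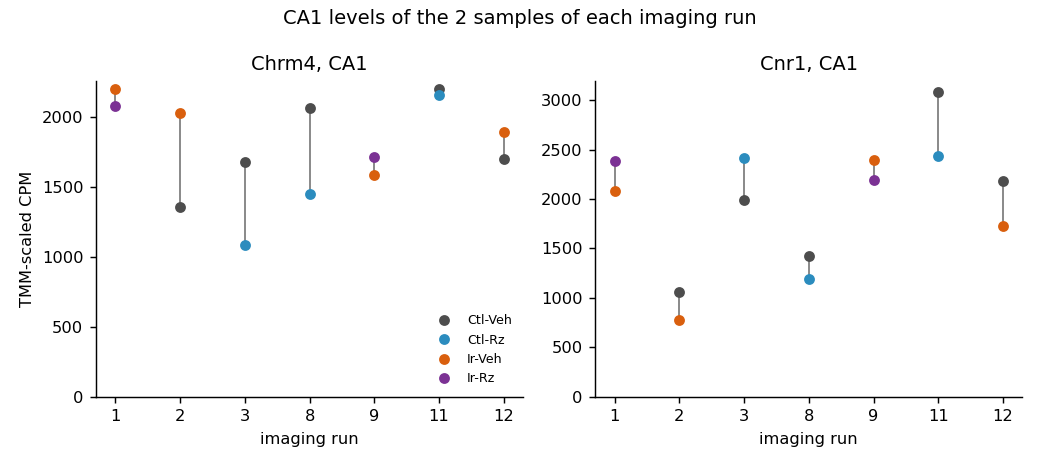
TMM-scaled CPM of Chrm4 and Cnr1 in CA1 cells for the 2 samples of each of the 7 runs, joined by a line. The Cnr1 pairs sit at different heights, from 774 and 1058 CPM in run 2 to 2434 and 3078 CPM in run 11, with little distance between the samples of a pair.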

How the data were processed

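Counts of transcripts per cell and gene are the authors' deposited values, with no normalization. Per the labels, cells were outlined on MERSCOPE images with a custom Cellpose pipeline; versions are not given in the sources used here. Classes and Leiden clusters are the deposited ones. The table holds 55.9% to 59.2% of the deposited total counts per sample, cells of under 20 counts (6) were kept, and no doublet caller was run. No cell name was shared between samples.

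Sums of counts per sample (whole sample or a class of it) were tested with edgeR 4.0.16 (filterByExpr, TMM, 1 fit over 14 samples, R 4.3.3); DESeq2 1.42.0 was an alternative. The edgeR step and the Arc ratio were tested on simulated data. The simulated members of the Arc ratio were denser than the real ones in DG cells, and the simulated edgeR counts shared no noise within runs. Same-run samples deviated together from their group means over genes (r from 0.298 to 0.671 in 7 of 7 runs), so the run (the assay number of the deposited cell table) pairs samples. Thinning drew 100 counts per cell. Promoters and positions are RefSeq's (GRCm38.p6); 254 of 255 symbols matched.

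The members and lists were chosen with earlier results of these data known. Named genes are the members, Arc, the measured cholinergic and endocannabinoid genes, the 5 most like each member over class sums and within DG cells, the 10 highest with Arc in DG, and the markers; a gene that this rule names is not reported here. The run test, the split by main cluster, the cells without clusters 1 and 8, the bins of 3 or more and 10 or more Arc counts, the neighbours and the Cnr1-rich cells were chosen after seeing the data. Python 3.11.15, numpy 2.4.6, pandas 2.3.3 and scipy 1.17.1 were used.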

Additional observations from a re-analysis of the deposited data

How the results depend on the processing

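No gene was called under any alternative, and the adjusted p of the members stayed between 0.746 and 1 over all cells and between 0.575 and 1 within classes. With library size alone, Chrm4 in Ir-Rz against Ir-Veh turned to 0.048. With the replicate block (run), Cnr1 turned to -0.23 for radiation and to -0.20 for RZ after radiation; the block changed no call. Leaving out 1 sample at a time gave, for Chrm4 over all cells, 0.06 to 0.28, -0.21 to -0.0091 and -0.46 to -0.09 for radiation, RZ after radiation and RZ without it, and -0.0074 to 0.36 for the difference of the RZ effects. For Cnr1 the ranges were -0.058 to 0.31, -0.14 to 0.20, -0.051 to 0.36 and -0.28 to 0.13. In DG cells, Cnr1 ranged from -0.25 to 0.083 for radiation and from -0.0024 to 0.33 for RZ without it. The Arc ratio in DG ran from 1.15 to 1.34 for Chrm4 and from 1.04 to 1.10 for Cnr1; in CA1 from 0.20 to 0.36 and from -0.05 to 0.0068, and in CA3 from 0.41 to 0.42 and from -0.13 to -0.10. The median Arc ratio moved to 0.051 for Chrm4 in DG cluster 0. At 3 or more Arc counts the DG cells are few and the added 0.5 counts weigh more, and 30.7% of the 254 genes had a median over 1. The Chrm4 median was then 2.70, and 3.16 when thinned to 100 counts, where CA3 gave 1.29. For Cnr1 in DG it was 0.30 when thinned, 2.66 at 3 or more Arc counts thinned, and 0.32 at 3 or more in cluster 0, where it rests on 4 counts and its sign on the added 0.5 counts (130 against 301 CPM); in CA3 thinned to 50 counts it turned to 0.35. The cause of these moves was not tested. The F of the run term for Cnr1 over all cells, 4.90, was 4.89 without run 1, 1.73 without run 2 and 4.15 without run 9, with no call left; in CA1 it fell from 9.27 to 4.90 without run 2. Depth limits the DG results, with 521 Chrm4 and 742 Cnr1 counts in 8561 cells.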
